A study of Mus musculus with 6 samples.

Results

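The 10 genes described here encode tetraspanins of leukocytes: Cd81, Cd63, Cd9, Cd37, Cd53, Cd82, Cd151, Tspan3, Tspan32 and Tspan33. They are 10 of the 19938 genes measured, and each is read by 1 of the 28853 probe sets on the array. They were taken as leukocyte members of the family, and the family was chosen by the measured levels of Cd81, which lay lower in CD24+CD172a+ cDC2 than in the other populations. Those levels are therefore given as a description with no test. No filter on dim genes was applied, so all 10 members were in the fit.

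The study measured gene expression in splenic dendritic cells of wild-type mice after cell sorting, on 6 Affymetrix arrays. There were 2 arrays of CD24+ cDC1 (CD24+CD172a- in the series title), 2 of CD24+CD172a+ cDC2 and 2 of CD24-CD172a+ cDC2. No group carried a mutation or received a treatment per the labels. Strain, age, sex and the number of animals behind an array are not given in the sources used here. Whether replicate arrays stand for different mice is not stated either, so the p-values measure only the spread between these arrays, which may be technical.

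Tetraspanins are small proteins that cross the membrane 4 times and expose a small and a large extracellular loop. They bind other membrane proteins, among them integrins, immunoglobulin superfamily proteins, proteases and MHC molecules, and gather them into shared patches of membrane. In dendritic cells they are known for the traffic and clustering of MHC class II molecules, for migration and for the cargo of extracellular vesicles. Conventional dendritic cells of type 1 (cDC1) excel at cross-presentation to CD8 T cells, and those of type 2 (cDC2) at priming CD4 T cells.

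The DNA just upstream of the members differed in base composition and in the short motifs it holds. The 250 bases before the start of 6 members are shown because the results turn on these genes: Cd81, Cd9 and Tspan33 were highest in cDC1, Cd63 and Cd53 were highest in CD24-CD172a+ cDC2, and Cd37 was highest in CD24+CD172a+ cDC2. The sequences come from RefSeq (mouse assembly GRCm38.p6), in which 10 of 10 members matched by symbol, with 14 windows. They are written 5′ to 3′ on the strand of the gene, and each ends at the base before the start. Capitals mark matches, on either strand, to GGGCGG (the GC box bound by SP factors), GAGGAA (a core of the sites of PU.1) or CACCTG (an E-box bound by ZEB and E proteins).
Cd81: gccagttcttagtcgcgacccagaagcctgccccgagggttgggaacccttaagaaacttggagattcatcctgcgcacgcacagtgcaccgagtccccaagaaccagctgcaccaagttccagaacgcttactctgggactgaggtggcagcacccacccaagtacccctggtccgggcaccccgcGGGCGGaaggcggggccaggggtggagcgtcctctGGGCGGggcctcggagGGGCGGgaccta
Cd9: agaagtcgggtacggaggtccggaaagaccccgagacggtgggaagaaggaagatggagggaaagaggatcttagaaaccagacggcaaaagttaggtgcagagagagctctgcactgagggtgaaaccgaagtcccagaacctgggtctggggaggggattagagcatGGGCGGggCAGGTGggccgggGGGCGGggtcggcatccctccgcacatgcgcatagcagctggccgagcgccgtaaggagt
Tspan33: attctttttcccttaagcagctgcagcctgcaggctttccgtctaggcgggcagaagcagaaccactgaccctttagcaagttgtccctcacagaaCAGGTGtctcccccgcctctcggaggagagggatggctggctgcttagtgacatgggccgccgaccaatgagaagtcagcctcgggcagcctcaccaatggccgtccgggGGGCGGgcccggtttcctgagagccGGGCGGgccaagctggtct
Cd63: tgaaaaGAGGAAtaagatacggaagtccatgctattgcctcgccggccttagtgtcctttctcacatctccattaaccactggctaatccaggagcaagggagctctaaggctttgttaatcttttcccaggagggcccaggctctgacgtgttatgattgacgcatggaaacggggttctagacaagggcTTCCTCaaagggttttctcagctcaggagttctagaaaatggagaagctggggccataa
Cd53: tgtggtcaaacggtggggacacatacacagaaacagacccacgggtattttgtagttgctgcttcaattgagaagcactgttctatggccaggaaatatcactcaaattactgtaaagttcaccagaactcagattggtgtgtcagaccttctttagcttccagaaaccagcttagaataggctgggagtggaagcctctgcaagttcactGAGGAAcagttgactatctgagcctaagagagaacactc
Cd37: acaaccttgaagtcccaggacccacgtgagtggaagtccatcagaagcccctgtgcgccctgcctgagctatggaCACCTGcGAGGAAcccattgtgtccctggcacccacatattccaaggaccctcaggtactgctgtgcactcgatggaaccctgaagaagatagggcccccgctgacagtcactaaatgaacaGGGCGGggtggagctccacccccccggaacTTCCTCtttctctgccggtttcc

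The Cd81 window (chr7:143052500-143052749, plus strand) held 3 GC boxes, which began 63, 28 and 12 bases before the start, and was 65.6% G and C. The Cd9 window (chr6:125494761-125495010, minus strand) held 2 GC boxes and 1 E-box and was 61.6% G and C. The Tspan33 window (chr6:29693964-29694213, plus strand) held the same motifs in the same numbers and was 62.4% G and C. The windows of Cd63 (chr10:128909095-128909344, plus strand, 48.8% G and C) and Cd53 (chr3:106790150-106790399, minus strand, 45.2%) held no GC box. They held 2 and 1 matches to the PU.1 core. The Cd37 window (chr7:45238840-45239089, minus strand, 58.8%) held 1 GC box, 2 PU.1 cores and 1 E-box.

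Across all 10 members the GC box was found in 6, the PU.1 core in 5 and the E-box in 5. Cd82 and Cd151 have several windows each, so they weigh more in a count by window. Counted that way, the GC box stood in 7 of 14 windows of members, against 32.7% of the 32851 windows searched. The median of all windows was 52.4% G and C, and windows rich in G and C can match the GC box more often. The PU.1 core stood in 5 of 14, against 23.3%, and the E-box in 6 of 14, against 17.2%. The ETS-IRF composite element bound by PU.1 with IRF4 or IRF8 (2.30% of all windows), the repeated GAAA element of IRF factors (2.98%) and the AP-1 element TGANTCA (6.75%) were searched on both strands as well and matched 0 of 14. The PU.1 core and the ETS-IRF motif share the letters GGAA, and the ETS-IRF and IRF motifs share GAAA, so matches can overlap. In the order of protein-coding genes in that assembly, Tspan32 and Cd81 are neighbours on chromosome 7.

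The arrays were alike in overall signal, with median intensities from 29.5 to 30.6, and replicate arrays correlated at 0.992 to 0.993 across genes, which are not independent replicates. Of 8 markers of cDC1, 8 were lower in CD24+CD172a+ cDC2 than in cDC1 and 7 in CD24-CD172a+ cDC2. Of 8 markers of cDC2, 7 and 8 were higher in those comparisons (limma, Benjamini-Hochberg adjusted p under 0.05 over all genes, the threshold used throughout). No marker gene was listed at 0. All levels below are log2 of the deposited intensity of the gene's own probe set, so a difference of 1 is a 2-fold change, and levels of different genes are not compared. In RNA from sorted populations, fewer cells that express a gene and less RNA per cell cannot be told apart.

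**Figure D1:**
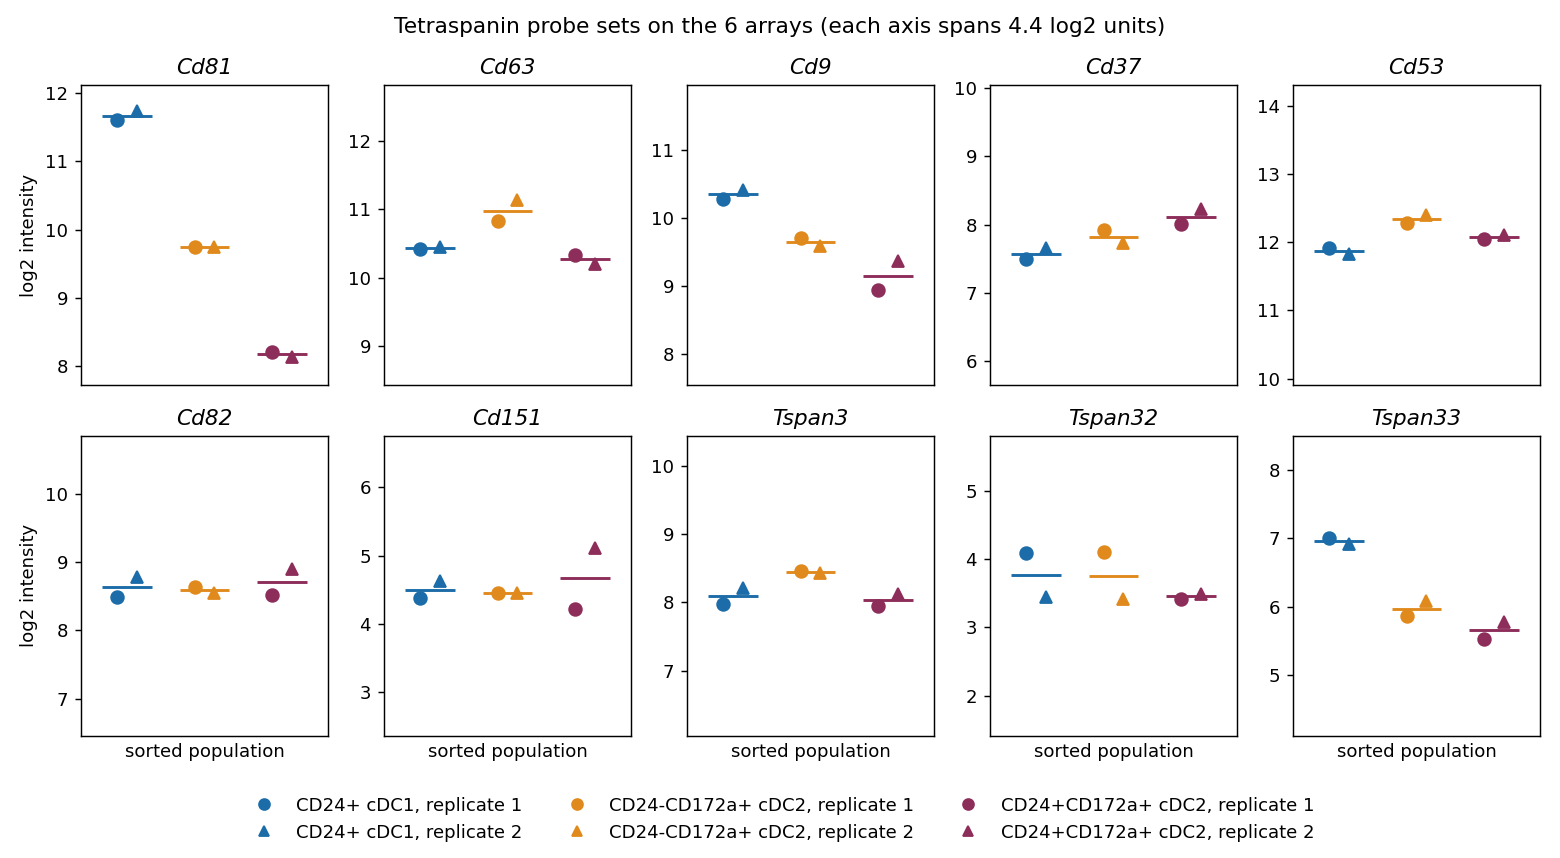
Level of each of the 10 tetraspanins on each of the 6 arrays (log2 intensity of the gene's probe set), with points for arrays (circle replicate 1, triangle replicate 2) coloured by population and a bar at each group mean. The Cd81 arrays fall into 3 separate pairs, at 11.60 and 11.74 in cDC1, 9.75 and 9.75 in CD24-CD172a+ cDC2 and 8.21 and 8.14 in CD24+CD172a+ cDC2, while those of Cd82 overlap.

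Cd81 encodes a protein that binds integrins and immunoglobulin superfamily proteins and is often used, with CD9 and CD63, to mark extracellular vesicles. Its levels on the cDC1 arrays were 11.60 and 11.74. The CD24-CD172a+ cDC2 arrays read 9.75 and 9.75. The CD24+CD172a+ cDC2 arrays read 8.21 and 8.14. The 3 populations were thus in 3 separate pairs, with cDC1 highest and CD24+CD172a+ cDC2 lowest, and the higher of the CD24+CD172a+ arrays lay 1.54 below the lowest of the other 4. The choice of the family used the levels of all 3 populations, but not the difference of CD24-CD172a+ cDC2 from cDC1. In that comparison Cd81 was 3.79-fold lower (log2 difference -1.92 ± 0.13 SE, 95% interval -2.20 to -1.64, n = 2 arrays each, limma adjusted p = 2.46e-06). It kept that call without any one of the 6 arrays. As a description, the mean in CD24+CD172a+ cDC2 was 2.98-fold below that in CD24-CD172a+ cDC2 and 11.3-fold below that in cDC1. Also as a description, the group means of Cd81 spanned 3.50 on the log2 scale. Those of the other 9 members spanned 0.11 (Cd82) to 1.31 (Tspan33). The span of Cd81 is its difference between CD24+CD172a+ cDC2 and cDC1, which the choice of the family used.

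Cd9, the closest relative of Cd81 among these genes, acts in membrane fusion, adhesion and the traffic of MHC class II molecules. Its levels were 10.27 and 10.42 on the cDC1 arrays, 8.94 and 9.36 in CD24+CD172a+ cDC2, and 9.71 and 9.59 in CD24-CD172a+ cDC2. The order of the populations was that of Cd81, and no arrays of different populations overlapped. Cd9 was 2.28-fold lower in CD24+CD172a+ cDC2 than in cDC1 (log2 difference -1.19 ± 0.16, limma adjusted p = 0.000467), a call kept without any one array. It was 1.62-fold lower in CD24-CD172a+ cDC2 than in cDC1 (-0.69 ± 0.16, limma adjusted p = 0.0130). That call was lost without cDC1 array 2 (0.0890) or CD24-CD172a+ array 2 (0.0718). Between the cDC2 populations Cd9 did not pass the test (log2 difference -0.50 ± 0.16, 95% interval -0.85 to -0.14, limma adjusted p = 0.178). Cd9 is abundant in platelets and megakaryocytes. Of 5 measured markers of these cells 0 were called by limma in any comparison (at an unadjusted p under 0.05, 0, 1 and 0 in the order between the cDC2 populations, CD24+CD172a+ cDC2 against cDC1 and CD24-CD172a+ cDC2 against cDC1). Their summed intensities were 134 to 141 in cDC1, 124 to 125 in CD24+CD172a+ cDC2 and 136 to 141 in CD24-CD172a+ cDC2.

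Tspan33 belongs to the TspanC8 tetraspanins, which escort the protease ADAM10 out of the endoplasmic reticulum and steer its cleavage of surface proteins such as Notch. Its cDC1 arrays read 7.01 and 6.91. Its CD24+CD172a+ arrays read 5.52 and 5.78 and its CD24-CD172a+ arrays 5.86 and 6.08, so the cDC1 arrays stood apart and the cDC2 populations lay close together. Tspan33 was 2.48-fold lower in CD24+CD172a+ cDC2 than in cDC1 (log2 difference -1.31 ± 0.14, limma adjusted p = 0.000116). It was 1.99-fold lower in CD24-CD172a+ cDC2 than in cDC1 (-0.99 ± 0.14, limma adjusted p = 0.000845). Both calls were kept without any one array. Between the cDC2 populations the difference was -0.32 ± 0.14 (95% interval -0.64 to -0.00, limma adjusted p = 0.356). Adam10 itself, singled out for this partnership outside the naming rule, passed limma's test in 0 of 3 comparisons after adjustment, and in 1, between the cDC2 populations, at an unadjusted p under 0.05 (log2 difference -0.31 ± 0.13, limma adjusted p = 0.322). Its group means were 7.33 ± 0.10 (SD, n = 2) in CD24-CD172a+ cDC2, 7.20 ± 0.12 in cDC1 and 7.02 ± 0.03 in CD24+CD172a+ cDC2.

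Cd63 sits in late endosomes, lysosomes and intraluminal vesicles, from which exosomes derive. Its arrays read 10.83 and 11.13 in CD24-CD172a+ cDC2, 10.41 and 10.45 in cDC1, and 10.33 and 10.20 in CD24+CD172a+ cDC2. The CD24-CD172a+ arrays were above all others, and the order of the populations differed from that of Cd81, Cd9 and Tspan33. Cd63 was lower in CD24+CD172a+ than in CD24-CD172a+ cDC2 by 1.64-fold (log2 difference -0.71 ± 0.14, limma adjusted p = 0.0407). That call was lost without any one of the 6 arrays (adjusted p from 0.0572 to 0.240). Cd63 was higher in CD24-CD172a+ cDC2 than in cDC1 (0.55 ± 0.14, limma adjusted p = 0.0242), a call lost without cDC1 array 1 (0.128), cDC1 array 2 (0.0888) or CD24-CD172a+ array 2 (0.145). The difference between CD24+CD172a+ cDC2 and cDC1 was -0.17 ± 0.14 (95% interval -0.48 to 0.15, limma adjusted p = 0.572). Of 12 measured markers of monocytes and macrophages, cells rich in lysosomes, 5 were lower in CD24+CD172a+ than in CD24-CD172a+ cDC2 and 0 were higher. In CD24-CD172a+ cDC2 against cDC1, 6 were higher and 1 lower, and in CD24+CD172a+ cDC2 against cDC1, 2 were higher and 2 lower. Their summed intensities were 2353 to 2455 in cDC1, 3072 to 3341 in CD24+CD172a+ cDC2 and 3942 to 4007 in CD24-CD172a+ cDC2. The largest part of these sums came from Cd68, with geometric means of 1406, 1857 and 1954 in the same order. Both Cd63 and these sums were highest in CD24-CD172a+ cDC2. The sums were lowest in cDC1 and Cd63 in CD24+CD172a+ cDC2. Single markers fell in different orders. In CD24-CD172a+ cDC2, cDC1 and CD24+CD172a+ cDC2, the log2 means of Spic were 8.29, 7.84 and 6.73 and those of Cd14 9.27, 8.94 and 8.85, the order of Cd63. Those of Adgre1 (8.89, 4.17 and 7.77) and Csf1r (8.37, 4.77 and 8.54) were lowest in cDC1. The part of these markers in the Cd63 differences was not tested.

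Cd37 and Cd53 are restricted to cells of the blood system and regulate integrins and immune receptor signals. Cd37 read 7.50 and 7.66 in cDC1, 8.01 and 8.23 in CD24+CD172a+ cDC2, and 7.93 and 7.72 in CD24-CD172a+ cDC2. Its CD24+CD172a+ arrays were above all others, with a gap of 0.08, and its cDC1 arrays were below all others. Cd37 was 1.46-fold higher in CD24+CD172a+ cDC2 than in cDC1 (log2 difference 0.54 ± 0.14, limma adjusted p = 0.0287). The call was lost without cDC1 array 1 (0.187), cDC1 array 2 (0.0648), CD24+CD172a+ array 1 (0.0552) or CD24+CD172a+ array 2 (0.197). It did not pass in the other comparisons, with 0.29 ± 0.14 between the cDC2 populations (limma adjusted p = 0.394) and 0.25 ± 0.14 between CD24-CD172a+ cDC2 and cDC1 (0.321). Cd37 is most abundant in B cells. Of 8 measured B cell markers, 0 were called by limma between the cDC2 populations, and 1 had an unadjusted p under 0.05. In CD24+CD172a+ cDC2 against cDC1, 3 were higher and 1 lower, and in CD24-CD172a+ cDC2 against cDC1, 2 were higher and 1 lower. Their summed intensities overlapped, at 249 to 291 in cDC1, 253 to 261 in CD24+CD172a+ cDC2 and 244 to 253 in CD24-CD172a+ cDC2. The largest part of the cDC1 sums came from Ms4a1, with geometric means of 120, 42 and 46 in the same order. Blk (29, 65 and 60) and Cd79b (43, 63 and 51) were lowest in cDC1, so the overlap of the sums does not show that the single markers were level. The part of these markers in the Cd37 difference was not tested.

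Cd53 read 11.91 and 11.83 in cDC1, 12.05 and 12.11 in CD24+CD172a+ cDC2, and 12.29 and 12.39 in CD24-CD172a+ cDC2. The arrays of the 3 populations did not overlap: cDC1 was lowest and CD24-CD172a+ cDC2 highest. Cd53 was 1.39-fold higher in CD24-CD172a+ cDC2 than in cDC1 (log2 difference 0.47 ± 0.13, limma adjusted p = 0.0285). That call was lost without cDC1 array 1 (0.0965), cDC1 array 2 (0.145), CD24-CD172a+ array 1 (0.0592) or CD24-CD172a+ array 2 (0.122). The neighbouring means did not differ beyond the threshold, at -0.26 ± 0.13 between the cDC2 populations (limma adjusted p = 0.394) and 0.21 ± 0.13 between CD24+CD172a+ cDC2 and cDC1 (0.374).

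Of the remaining 4 members, none passed the test in any of the 3 comparisons. Tspan3, a widely expressed member, read 7.98 and 8.22 in cDC1, 7.95 and 8.13 in CD24+CD172a+ cDC2, and 8.47 and 8.43 in CD24-CD172a+ cDC2. Its CD24-CD172a+ arrays were above the other 4. The log2 difference between CD24+CD172a+ and CD24-CD172a+ cDC2 was -0.41 ± 0.14 (limma adjusted p = 0.211), and that between CD24-CD172a+ cDC2 and cDC1 was 0.35 ± 0.14 (limma adjusted p = 0.134), both with an unadjusted p under 0.05. Cd82, known as a suppressor of metastasis and as a regulator of MHC class II clusters in dendritic cells, read between 8.49 and 8.90 on the 6 arrays, and all 3 populations overlapped. Its largest difference was 0.11 ± 0.16 between the cDC2 populations (95% interval -0.25 to 0.47, limma adjusted p = 0.814), and its difference between CD24-CD172a+ cDC2 and cDC1 changed sign with the scaling of the arrays (-0.04 as deposited, 0.02 after a second quantile normalisation, 0.05 after cyclic loess).

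Cd151, a partner of laminin-binding integrins, and Tspan32, a tetraspanin of blood cells, gave dim signals. Cd151 read 4.37 and 4.63 in cDC1, 4.21 and 5.12 in CD24+CD172a+ cDC2, and 4.45 and 4.45 in CD24-CD172a+ cDC2. Tspan32 read 4.09 and 3.44 in cDC1, 3.42 and 3.49 in CD24+CD172a+ cDC2, and 4.10 and 3.41 in CD24-CD172a+ cDC2. The mean of Cd151 lay below the median gene (5.04), and that of Tspan32 below the lower quartile of genes (3.94). The SD between replicate arrays reached 0.64 for Cd151 and 0.49 for Tspan32, while their group means differed by at most 0.21 and 0.31. Their 95% intervals ran from -0.32 to 0.75 and from -0.84 to 0.24 between the cDC2 populations, so differences of that size were not resolved.

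**Figure D2:**
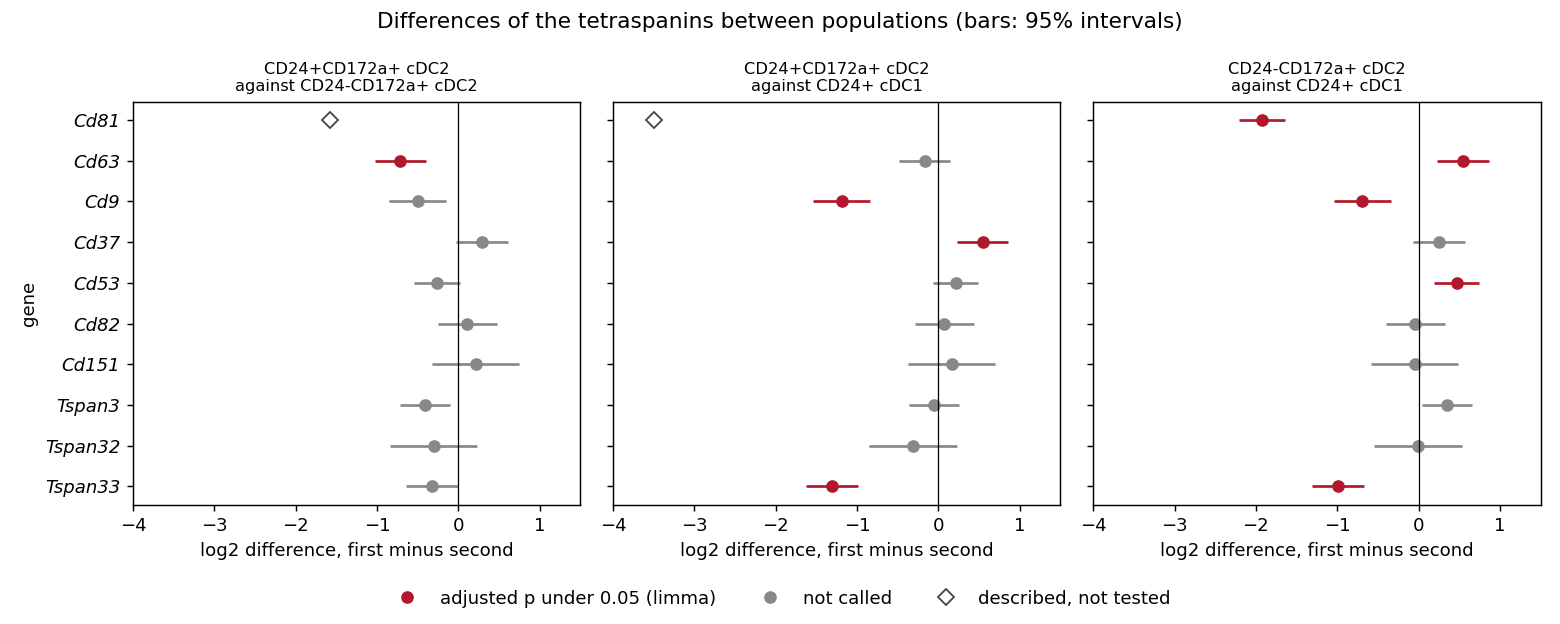
Difference between populations for each of the 10 tetraspanins in the 3 pairwise comparisons (log2 difference, first population minus second), with 95% intervals of limma, red points for adjusted p under 0.05, grey points for differences not called and open diamonds for Cd81 where it was not tested. Cd81, Cd9 and Tspan33 lie below 0 in every panel, down to -3.50, while the intervals of Cd82, Cd151 and Tspan32 span 0 throughout.

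Of the 9 members tested between CD24+CD172a+ and CD24-CD172a+ cDC2, 1 was called, Cd63, which was lower. Of all genes 1.46% were called in this comparison, 0.808% higher and 0.652% lower. The arrays of these populations did not overlap for 6 of 9 members, against 44.2% of all genes. The median difference of the 9 was -0.30, beside -0.01 over all genes, and 4 had an unadjusted limma p under 0.05, as did 2799 of all 19938 genes. Markers of other cells also differed between the cDC2 populations. Of 8 measured markers of plasmacytoid dendritic cells, 3 (Siglech, Tcf4 and Spib) were higher in CD24+CD172a+ cDC2 and 0 lower, with summed intensities of 774 to 792 there, 511 on both arrays of CD24-CD172a+ cDC2 and 642 to 655 in cDC1. Of 9 neutrophil markers, 2 (S100a8 and S100a9) were higher and 0 lower, with sums of 306 to 334, 220 to 230 and 202 to 208. At an unadjusted limma p under 0.05, 4 of the 9 differed. Csf3r (5.42 against 5.89) and Mpo (4.55 against 5.11) had lower means in CD24+CD172a+ than in CD24-CD172a+ cDC2. Of the 9, 7 lay below the median gene. The markers named here were singled out after their values were seen. The part of these markers in the differences of the tetraspanins and their partners was not tested.

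Of the 9 members tested between CD24+CD172a+ cDC2 and cDC1, 3 were called, with Cd37 higher and Cd9 and Tspan33 lower, where 13.6% of all genes were called, 7.11% higher and 6.52% lower. The arrays did not overlap for 5 of 9, against 52.0% of genes, and the median difference was -0.06, beside -0.03. In CD24-CD172a+ cDC2 against cDC1, 5 of 10 were called, with Cd63 and Cd53 higher and Cd81, Cd9 and Tspan33 lower. Of all genes 15.7% were called, 6.83% higher and 8.91% lower. Both the 5 and the 10 include Cd81, by whose levels on these arrays the family was chosen. The arrays did not overlap for 7 of 10, against 52.4% of genes, and the median difference was -0.02, beside 0.00. Shares over all genes include dim genes, while of the members only Cd151 and Tspan32 lay below the median gene. Besides the members, 9961 genes lay at or above it. Without genes below it, 2910 and 3340 genes were called against cDC1, with 3 and 5 members. Each pair of the 3 comparisons shares 2 arrays, so their values stand side by side and are not independent. With each array left out in turn, the count of members called ranged from 0 to 0, from 2 to 3 and from 2 to 5 in the order given. The calls kept throughout were Cd9 and Tspan33 in CD24+CD172a+ cDC2 against cDC1, and Cd81 and Tspan33 in CD24-CD172a+ cDC2 against cDC1.

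Besides Cd81, 3 members read lower on both CD24+CD172a+ arrays than on all 4 others: Cd9 by 0.23, Cd63 by 0.08 and Tspan33 by 0.08. Of the genes outside the 10, 9.99% had that pattern. Cd37 alone of the 10 had the opposite pattern, as did 8.86% of the genes outside the 10.

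The array also measured 20 of 21 listed tetraspanins outside the 10. Between the cDC2 populations 0 of 20 passed limma's test, where 1.46% of all genes did, and 1 had an unadjusted p under 0.05. In CD24+CD172a+ cDC2 against cDC1, 1 was higher and 1 lower, where 13.6% of all genes were called. Tspan14, a TspanC8 partner of ADAM10 like Tspan33, was higher, with means of 6.36 ± 0.23 (SD, n = 2) in CD24+CD172a+ cDC2 and 5.64 ± 0.05 in cDC1 (log2 difference 0.72 ± 0.17 SE, limma adjusted p = 0.0182). Tspan4, known for its place in migrasomes, was lower, with 4.88 ± 0.02 and 5.46 ± 0.00 (-0.58 ± 0.12, limma adjusted p = 0.00938). The Tspan14 call was lost without cDC1 array 1 (0.105), cDC1 array 2 (0.0683) or CD24+CD172a+ array 2 (0.160), and the Tspan4 call without any one of the 4 arrays compared (0.0521 to 0.0641).

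In CD24-CD172a+ cDC2 against cDC1, 2 of the 20 were higher and 0 lower, where 15.7% of all genes were called. Tspan2 had means of 6.69 ± 0.01 and 5.62 ± 0.44 (1.07 ± 0.25, limma adjusted p = 0.0143). Tspan5, another TspanC8 member, had 5.20 ± 0.05 and 4.63 ± 0.04 (0.56 ± 0.17, limma adjusted p = 0.0456). The Tspan2 call was lost without cDC1 array 1 (0.133), CD24-CD172a+ array 1 (0.0636) or CD24-CD172a+ array 2 (0.0650). The Tspan5 call was lost without any one of the 4 arrays compared (0.109 to 0.174), with an offset of 16 (0.0850) and with array weights (0.0514). The median difference of the 20 was -0.05, -0.06 and 0.03 in the 3 comparisons, in the order above.

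**Figure D3:**
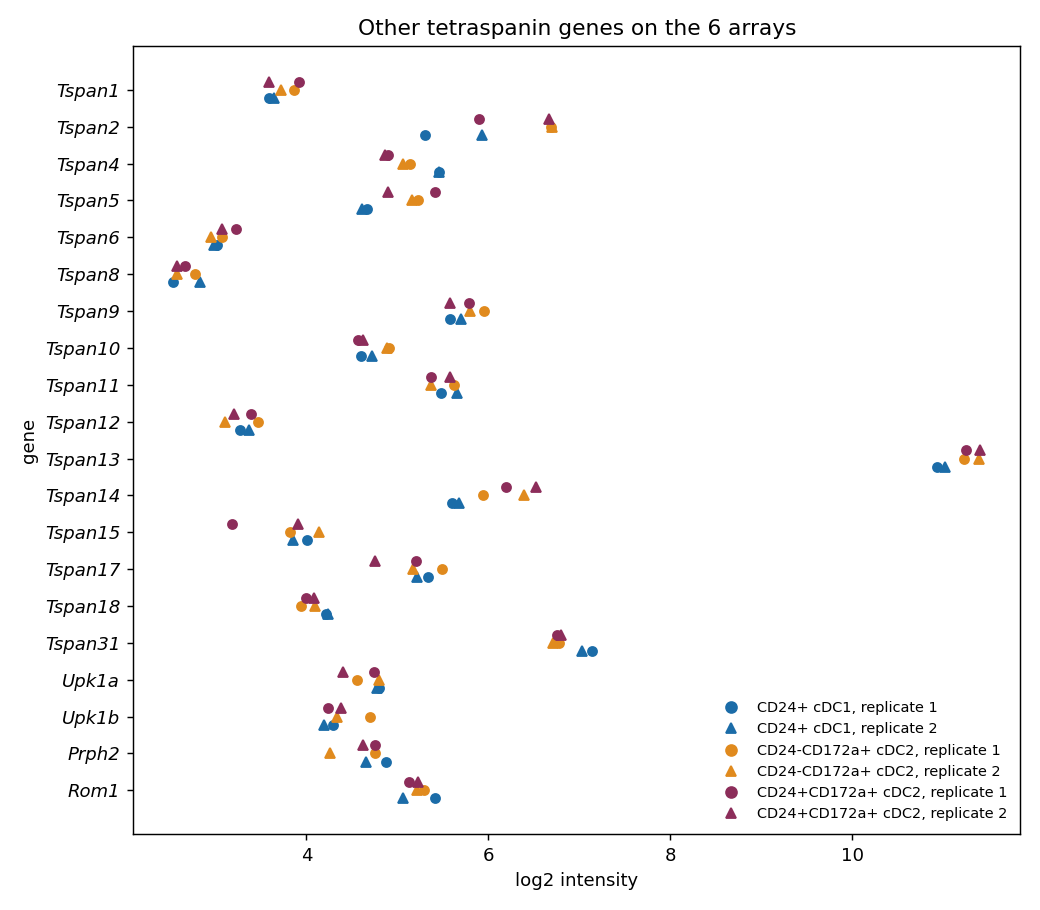
Level of each of the 20 other tetraspanins on each of the 6 arrays (log2 intensity of the gene's probe set), with points coloured by population. The 3 populations lie close together for most genes, and the called differences are those of Tspan14, Tspan4, Tspan2 and Tspan5, between 0.56 and 1.07 in size.

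Partners are the proteins that tetraspanins are known to bind or to be found with. Of 31 measured partners of 32 listed, 3 were higher and 1 lower in CD24+CD172a+ than in CD24-CD172a+ cDC2. In CD24+CD172a+ cDC2 against cDC1, 8 were higher and 8 lower, and in CD24-CD172a+ cDC2 against cDC1, 7 and 7. The shares of all genes called in these comparisons were 1.46%, 13.6% and 15.7%, with dim genes included. Without genes below the median gene, 437, 2910 and 3340 genes were called, with 4, 15 and 14 partners. Besides the members, 9961 genes were left in those fits, so the shares of genes called were higher than those over all genes. Some measured partners are also in the marker lists: Cd8a in that of cDC1, Vcam1 in that of macrophages and H2-Aa in that of markers shared by dendritic cells. Cr2 is also in that of B cells and Itga2b in that of platelets and megakaryocytes. The median differences were -0.04, -0.06 and 0.09.

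Cd36, a scavenger receptor found with CD9 and integrins, had means of 10.36 ± 0.03 (SD, n = 2) in cDC1, then 5.76 ± 0.00 in CD24-CD172a+ cDC2, then 4.72 ± 0.17 in CD24+CD172a+ cDC2. This is the order of Cd81. It was lower in CD24+CD172a+ cDC2 than in cDC1 (log2 difference -5.64 ± 0.13 SE, limma adjusted p = 4.59e-09) and than in CD24-CD172a+ cDC2 (-1.03 ± 0.13, limma adjusted p = 0.00703). The last call was lost without CD24+CD172a+ array 1 (0.0912).

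Cd8a, whose protein dimer marks cDC1 of the spleen, fell in another order, with a mean of 11.00 ± 0.11 in cDC1, then 7.58 ± 0.37 in CD24+CD172a+ cDC2, then 5.47 ± 0.22 in CD24-CD172a+ cDC2. It was higher in CD24+CD172a+ than in CD24-CD172a+ cDC2 (2.11 ± 0.19, limma adjusted p = 0.000925). Cd4, a coreceptor that binds CD81 and CD82 and is carried by many cDC2, was higher in CD24+CD172a+ cDC2 than in cDC1 (2.30 ± 0.13, limma adjusted p = 8.27e-07). So was Clec7a, which encodes the fungal receptor Dectin-1, a partner of CD37 (2.19 ± 0.13, limma adjusted p = 1.01e-06). In CD24-CD172a+ cDC2 against cDC1, Cldn1, a claudin that binds CD81, was lower (-2.47, limma adjusted p = 8.92e-07), as were Cd8a (-5.53, 2.14e-08) and Cd36 (-4.60, 1.04e-08), and Cd4 was higher (2.71, 2.21e-07). Each of these calls was kept without any one array.

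Itgb3, the integrin beta 3 chain, was higher in CD24+CD172a+ cDC2 (6.36 ± 0.14) than in CD24-CD172a+ cDC2 (5.57 ± 0.28), with a difference of 0.79 ± 0.16 (limma adjusted p = 0.0462). Cldn1 was higher too, at 6.72 ± 0.23 against 5.97 ± 0.01 (0.75 ± 0.14, limma adjusted p = 0.0360). The Cldn1 call was lost without any one of the 6 arrays (0.0590 to 0.233), and the Itgb3 call without any of them but CD24-CD172a+ array 1 (0.0673 to 0.266). After a second quantile normalisation both were lost as well (0.0650 and 0.0725), the Cldn1 call also after cyclic loess (0.0656), and the Itgb3 call with an offset of 16 (0.0635) and with array weights (0.0517).

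Genes of endosomal sorting and exosome release serve the route by which Cd63, Cd81 and Cd9 proteins leave cells in vesicles. Of 35 measured, 2 were higher and 0 lower in CD24+CD172a+ than in CD24-CD172a+ cDC2, 2 were higher and 2 lower in CD24+CD172a+ cDC2 than in cDC1, and 2 and 2 in CD24-CD172a+ cDC2 against cDC1. Of all genes 1.46%, 13.6% and 15.7% were called in these comparisons. The median differences were -0.01, -0.08 and -0.06. Vps37b, a subunit of the ESCRT-I sorting complex, was higher in both cDC2 populations, with means of 9.24 ± 0.27 (SD, n = 2) in CD24+CD172a+ cDC2, 9.25 ± 0.03 in CD24-CD172a+ cDC2 and 7.79 ± 0.09 in cDC1. Its differences from cDC1 were 1.45 ± 0.15 (SE, limma adjusted p = 8.01e-05) and 1.46 ± 0.15 (limma adjusted p = 8.12e-05). Rab11a, a GTPase of recycling endosomes, was lower in both, with 8.88 ± 0.06 and 8.97 ± 0.16 against 9.71 ± 0.16 in cDC1. Its differences were -0.83 ± 0.14 (limma adjusted p = 0.00248) and -0.75 ± 0.14 (limma adjusted p = 0.00455), and the latter was lost without cDC1 array 1 (0.0518).

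The other calls of this list were smaller. In CD24+CD172a+ cDC2 against cDC1, Rab27a, a GTPase that docks secretory vesicles, was higher by 0.52 ± 0.13 (limma adjusted p = 0.0206) and Chmp5, an ESCRT-III subunit, was lower (-0.71 ± 0.16, limma adjusted p = 0.0111). In CD24-CD172a+ cDC2 against cDC1, Lamp2, a membrane protein of lysosomes, was higher by 0.56 ± 0.13 (limma adjusted p = 0.0157) and Vps4a, the ATPase that disassembles ESCRT-III, was lower (-0.54 ± 0.12, limma adjusted p = 0.0135). Each of these 4 calls was lost without at least 3 of the 4 arrays compared, 1 at a time, with adjusted p up to 0.126, 0.102, 0.0921 and 0.0858. Between the cDC2 populations, Mfge8, a secreted bridge to dying cells and a vesicle protein, was higher in CD24+CD172a+ cDC2 (6.02 ± 0.08 against 5.34 ± 0.09; 0.68 ± 0.13, limma adjusted p = 0.0358), as was Vps4a (6.57 ± 0.01 against 5.98 ± 0.05; 0.59 ± 0.12, limma adjusted p = 0.0499). Both were lost without any one of the 6 arrays (0.0577 to 0.218 and 0.0826 to 0.237). The Vps4a call was lost too after a second quantile normalisation (0.0939), cyclic loess (0.0897) and with array weights (0.0587).

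Some genes outside the family had nearly the pattern of Cd81 over the 6 arrays. Likeness was measured as the root mean square difference from Cd81 after each gene's mean over the arrays was taken off its log2 levels, among 9961 genes at or above the median gene with the members left out. The nearest was Il12b, the p40 subunit shared by interleukins 12 and 23, at 0.11. Its arrays read 10.52 and 10.72 in cDC1, 6.85 and 7.01 in CD24+CD172a+ cDC2, and 8.66 and 8.64 in CD24-CD172a+ cDC2, in 3 separate pairs as for Cd81.

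Treml4, a receptor that binds dying cells, followed at 0.24, with means of 9.07 ± 0.20 (SD, n = 2), 5.54 ± 0.27 and 6.77 ± 0.21 in the same order of populations. Lpar6, a receptor for lysophosphatidic acid, was at 0.34 (9.40 ± 0.03, 6.13 ± 0.28 and 6.96 ± 0.21). Ly75, which encodes the endocytic receptor DEC-205 of cDC1, was at 0.35 (8.69 ± 0.18, 5.66 ± 0.10 and 6.46 ± 0.26), as was Ccl2, a chemokine for monocytes (9.17 ± 0.20, 6.41 ± 0.03 and 7.82 ± 0.21). In each of the 5 the CD24+CD172a+ arrays were below the CD24-CD172a+ arrays and these below the cDC1 arrays. The 5 were chosen for this likeness, so it is a description with no test.

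**Figure D4:**
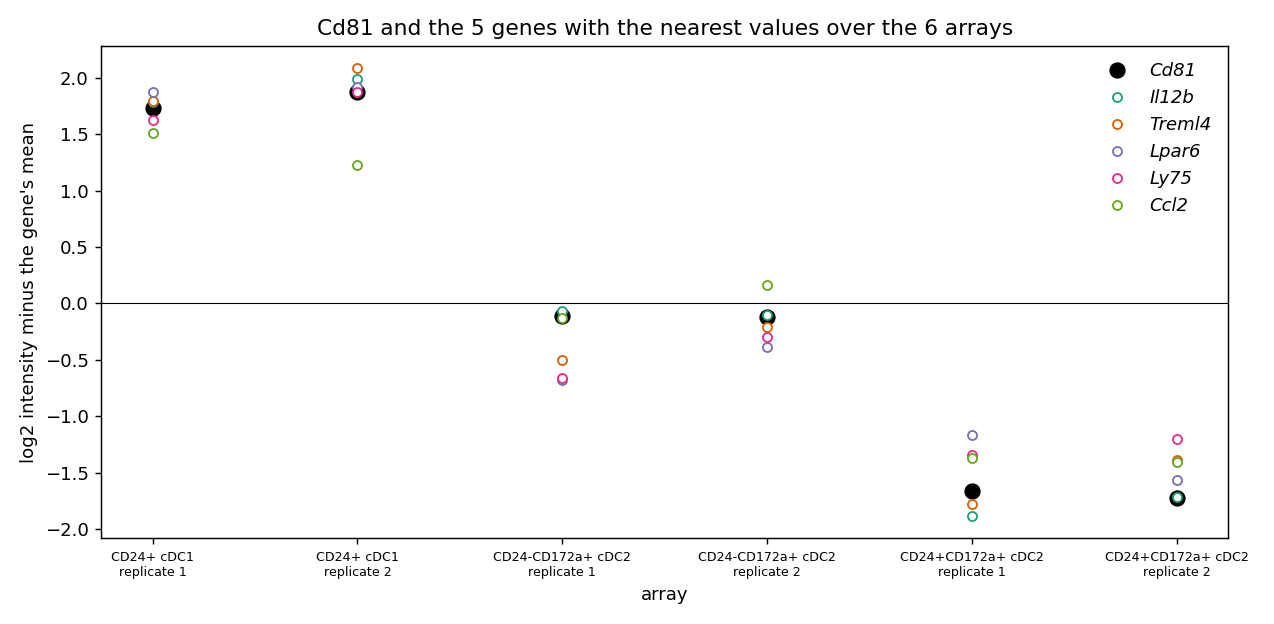
Levels of Cd81 and of the 5 genes nearest to it in pattern on the 6 arrays, each with its mean over the arrays taken off (log2 intensity minus the gene's mean). Il12b had the smallest root mean square difference from Cd81 over the arrays, 0.11, and the other 4 lay at 0.24 to 0.35.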

How the data were processed

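Per the labels' protocols, column-purified total RNA was turned into biotinylated cDNA with an Affymetrix WT Pico kit. RMA in Affymetrix Expression Console gave the values, per the submitters' processing notes. RMA equalises the distributions of the arrays, so a shift shared by most genes would not show. The deposited values are intensities on a linear scale, and their log2 was taken. Versions, detection calls and the genome build of the array are not given in the sources used here. Tests used the 21789 of 28853 probe sets that carry exactly 1 gene symbol (1621 had several symbols and 5443 none). For 999 genes with several, the brightest by mean was kept, which left 19938 genes.

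The 3 populations, 2 arrays each, shared a linear model in R 4.3.3 (limma 3.58.1, functions lmFit and eBayes, 3 residual and 7.31 prior degrees of freedom). P-values were adjusted by the Benjamini-Hochberg method over all genes, with a threshold of 0.05. The number of arrays limits the precision. The test was first run on simulated data with independent noise, as a check of the code and not of the calls reported here.

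The members, gene lists and tests were chosen with earlier results of these data known. Named were all 10 members, up to 4 called genes with the largest differences per list and comparison, and the 5 genes nearest to Cd81 in pattern. Alternatives were 3 other normalisations, omission of dim genes, averaged probe sets, an offset of 16, array weights, a trended and robust variance, a fit of just the populations compared, a block on replicate number, and omission of single arrays. Figures were drawn with matplotlib 3.10.9 in Python 3.11.15.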

Additional observations from a re-analysis of the deposited data

How the results depend on the processing

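Cd81 kept its order in every alternative and left-out array. Its log2 difference ran from -1.62 to -1.53 between the cDC2 populations and from -3.50 to -3.43 for CD24+CD172a+ cDC2 against cDC1. It ran from -1.93 to -1.86 for CD24-CD172a+ cDC2 against cDC1. These ranges are over the alternatives with all arrays of the groups compared. The choice of the family used Cd81 on these same arrays, so the first 2 ranges are a description. With only the groups compared, which leaves fewer arrays for the spread, CD24+CD172a+ against CD24-CD172a+ cDC2 gave 187 genes, 0 members, 2 partners and 0 endosomal sorting genes, in place of 291, 1, 4 and 2. In the same comparison the genes called were 437 without genes below the median gene and 464 with an intensity trend and robust variance, and cyclic loess moved the split of calls from 161 higher and 130 lower to 126 and 160. A second quantile normalisation gave 2 partners, and it, cyclic loess and array weights each gave 1 endosomal sorting gene. In CD24+CD172a+ cDC2 against cDC1, the offset of 16 gave 4 other tetraspanins in place of 2. In CD24-CD172a+ cDC2 against cDC1, other tetraspanins called were 4 without dim genes and 1 with array weights, in place of 2. Endosomal sorting genes there were 8 without dim genes, 7 with the offset and 8 with the trend, in place of 4. The difference of Cd82 in that comparison was 0.023 after quantile normalisation and 0.046 after cyclic loess, in place of -0.037. The causes of these changes were not tested. Cd151 and Tspan32, below the median gene, have no value without dim genes.

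Left out in turn, the arrays gave 20 to 187, 1781 to 2769 and 1922 to 2839 genes called in CD24+CD172a+ against CD24-CD172a+ cDC2, CD24+CD172a+ cDC2 against cDC1 and CD24-CD172a+ cDC2 against cDC1. Members called were 0 to 0, 2 to 3 and 2 to 5, other tetraspanins 0 to 0, 0 to 2 and 0 to 2, partners 1 to 3, 13 to 16 and 12 to 14, and endosomal sorting genes 0 to 0, 2 to 4 and 2 to 7. The sign of some small differences turned. Between the cDC2 populations, Cd82 ran from -0.080 to 0.30, Cd151 from -0.24 to 0.67 and Tspan32 from -0.65 to 0.043. Against cDC1, CD24+CD172a+ cDC2 gave Cd82 -0.12 to 0.26, Tspan3 -0.18 to 0.060, Cd151 -0.29 to 0.62 and Tspan32 -0.64 to 0.011. CD24-CD172a+ cDC2 gave Cd82 -0.19 to 0.11, Cd151 -0.18 to 0.079 and Tspan32 -0.36 to 0.34. A group with an array left out has 1 array, which is assumed to vary like the others.

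Arrays of the same number deviated together little (correlations of 0.02 to 0.08), so the numbers were not taken as pairing. With the replicate number as a block, 411, 2918 and 3323 genes were called in the same order, members stayed at 1, 3 and 5, and other tetraspanins in CD24+CD172a+ cDC2 against cDC1 rose to 4. With 2 arrays per group and no detection calls used here, differences near 0.5 and the dim signals of Cd151 and Tspan32 are poorly resolved.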
